A study of Mus musculus with 26 samples.

Results

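Thalamic neurons that project to motor cortex were compared with thalamic neurons that project to prefrontal cortex in the mouse. Members were taken from the authors' cell table by the cortical system recorded for each cell. It lists 484 motor cells from 5 animals and 388 prefrontal cells from 4 animals, which makes 872 of the 1972 cells of the series and 9 of its 20 animals. The other cells (380 auditory, 285 somatosensory and 435 visual) were used only in an alternative fit. In the study, neurons carried a fluorescent retrograde label, which axon endings take up and carry back to the cell body. Slices were kept in blockers of neural activity, thalamic areas were dissected, and labelled neurons were sorted by hand. Single cells gave 3' end libraries with UMIs (molecular tags that count each captured transcript once) and spike-in RNAs on 26 plates, and all 26 plates held cells of both systems.

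All 9 animals were male, and the label's agent, the strain and the genotype are not stated in the labels. Motor animals 1 and 2 and prefrontal animals 1 and 2 were in sequencing batch 1, motor animal 3 and prefrontal animal 3 in batch 2, and motor animals 4 and 5 and prefrontal animal 4 in batch 3. The recorded ages, with no unit given, were 112, 112, 71, 69 and 69 for the motor animals and 91, 91, 77 and 70 for the prefrontal animals. Cells were summed per animal, since cells of 1 animal are not replicates, and the sums are called Motor 1 to 5 and Prefrontal 1 to 4. They held 74, 82, 165, 80 and 83 motor cells and 64, 74, 170 and 80 prefrontal cells. Each system was sorted on 3 dates and none was shared, so sort date and system cannot be told apart.

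The thalamus relays signals to the cortex through nuclei that differ in their targets. Motor cortex receives axons mainly from the ventral anterior and ventrolateral nuclei, which pass on cerebellar and basal ganglia signals. Prefrontal cortex receives axons mainly from the mediodorsal nucleus and from midline and intralaminar nuclei, which are linked to working memory, arousal and affect. Thalamic projection neurons release glutamate, and they switch between burst and tonic firing through T-type calcium and HCN channels.

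A cell held 20509 to 683775 UMIs (median 103128.5) and an animal sum 5892815 to 20322775 UMIs over 36589 genes. The median per animal was 69956 to 176027 UMIs per cell in prefrontal and 76932 to 215798.5 in motor animals (exact permutation test, two-sided p = 0.603). At 20000 UMIs per cell, the median number of detected genes was 4120 ± 143 in motor (mean ± SD, n = 5) and 3830.2 ± 395 in prefrontal animals (n = 4, exact p = 0.190). Mitochondrial transcripts took 1.91 ± 0.349% and 1.497 ± 0.237% of UMIs (exact p = 0.0952). The smallest p that 5 against 4 animals allow is 0.0159. Summed markers of several other cell types overlapped between the systems. Astrocyte markers lay at 331 to 562 CPM (UMI counts of a sum scaled to the same total in every sum) in motor and 302 to 440.2 in prefrontal sums, microglial markers at 128 to 184 and 122 to 193, and vascular markers at up to 3.08 and 11.2. Markers of oligodendrocyte precursors did not overlap, at 73.9 to 113 CPM in motor and 116 to 143 CPM in prefrontal sums, and 4 of the 5 (Pdgfra, Cspg4, C1ql1 and Gpr17) were under 1 CPM in every sum. The GABA neuron markers Gad1, Slc32a1, Dlx1, Dlx2 and Isl1 were under 1 CPM in every sum. Summed habenula markers were 17 to 70.5 CPM in motor and 238 to 1860 CPM in prefrontal sums. Calb2, which is on that list and is described below, made up most of this level in prefrontal neurons. The medial habenula genes Tac2 and Chrnb4 were under 1 CPM in every sum. In a sum, fewer cells with a transcript and less of it per cell cannot be told apart, so shares of cells are given below for the leading genes.

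The systems differed in 1489 of 15400 genes tested (9.67%), with 700 (4.55%) higher in motor and 789 (5.12%) higher in prefrontal neurons. The test was edgeR's quasi-likelihood test on the animal sums, with batch as a covariate and p-values adjusted after Benjamini and Hochberg at 0.05; genes that passed it are here called different. Folds are log2, motor minus prefrontal, with the standard error (SE), so a negative value means higher in prefrontal neurons. Over all genes the median fold was 0.01. Large differences lay mostly on the prefrontal side. Of 405 different genes with a fold of at least 2 on the log2 scale in size, 295 were higher in prefrontal and 110 in motor neurons. In 1130 of the 1489 genes every motor sum lay on 1 side of every prefrontal sum. This was so for 1700 of all 15400 genes (11%). In 1483 of the 1489 the sign was the same in all 3 batches, which their choice by a test on the same sums favours. The count of different genes was 963 without Motor 1 and 955 without Motor 2. With cells summed per sort date it was 849, without batch 1 481 and without batch 3 829.

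The genes that stood out most in prefrontal neurons were almost silent in motor neurons. Slc30a3, the zinc transporter of synaptic vesicles, lay at 135, 216, 78.9 and 11.2 CPM in the 4 prefrontal sums and at 0.287, 0.199, 0.0628, 0 and 0 CPM in the 5 motor sums. Prefrontal 4, from batch 3, was the lowest of its group and still stood above every motor sum. The fold was -9.55 ± 0.34 (edgeR adjusted p = 1.65e-07) and stayed between -9.80 to -9.29 with any 1 animal left out. Fbln1, which encodes the extracellular matrix protein fibulin 1, lay at 158, 247, 113 and 104 CPM in prefrontal and 0.287, 0.249, 0.251, 1.09 and 0 CPM in motor sums. The groups did not overlap, and the fold was -8.81 ± 0.45 (adjusted p = 1.75e-06). Gpx3, a secreted glutathione peroxidase, lay at 166, 201, 84.3 and 38.01 CPM and 0.115, 0.0499, 0, 0 and 1.38 CPM (fold -8.85 ± 0.81, adjusted p = 0.00012). Motor 5 was the highest motor sum. Fxyd6, which modulates the sodium pump, lay at 102, 161, 57.8 and 62.4 CPM in prefrontal and at most at 0.573 CPM in motor sums (fold -8.55 ± 0.41, adjusted p = 1.72e-06).

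Receptors for peptides were among these genes. Oprk1, the kappa opioid receptor, lay at 63.9, 66.5, 18.8 and 17.5 CPM in prefrontal sums and at 0.172, 0, 0.126, 0 and 0 CPM in motor sums (fold -8.94 ± 0.58, adjusted p = 9.96e-06). For Galr1, a receptor for the peptide galanin, 1490 UMIs were counted in prefrontal cells and 1 in motor cells. Per total UMI that is a ratio of 2220, with an exact 95% interval of 398 to 87700 that covers counting error only. By animal Galr1 lay at 50.7, 53.8, 17.7 and 8.99 CPM in prefrontal sums. Nmbr, a receptor for neuromedin B, lay at 20.5, 9.95, 3.198 and 12.2 CPM in prefrontal sums and at most at 0.137 CPM in motor sums. Adgrg2, an adhesion receptor coupled to G proteins, lay at 25.2 to 64.98 and 0 to 0.229 CPM. Sulf1, an enzyme that removes sulfate from heparan sulfate chains outside the cell, had 1259 UMIs in prefrontal and 3 in motor cells, a ratio of 625 (213 to 3040). Prefrontal 4 stood apart for Sulf1, at 3.73 CPM against 22.98 to 41.2 in the other prefrontal sums.

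The remaining leading prefrontal genes were of mixed function. Doc2a, a calcium sensor of transmitter release, lay at 50.7, 61.3, 7.58 and 18.2 CPM in prefrontal and 0 to 0.573 CPM in motor sums (fold -7.68 ± 0.78). Plpp2, a phosphatase of phospholipids, lay at 4.75 to 26.3 CPM, Rsph9, a part of the radial spokes of motile cilia, at 3.73 to 26.4 CPM, and Tmem114, a transmembrane protein, at 4.24 to 72.7 CPM in prefrontal sums. In motor sums these 3 genes did not exceed 0.41 CPM. Wdr93 had 573 prefrontal UMIs and 1 motor UMI (ratio 854, interval 153 to 33800), and AW551984 1109 and 1 (ratio 1650, interval 296 to 65300). For all 15 genes the lowest prefrontal sum was above the highest motor sum, which the choice of the largest folds favours. In 13 of the 15 both sums of batch 1 were above the other 2 prefrontal sums, as the plots by animal show for 6 of them.

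**Figure D1:**
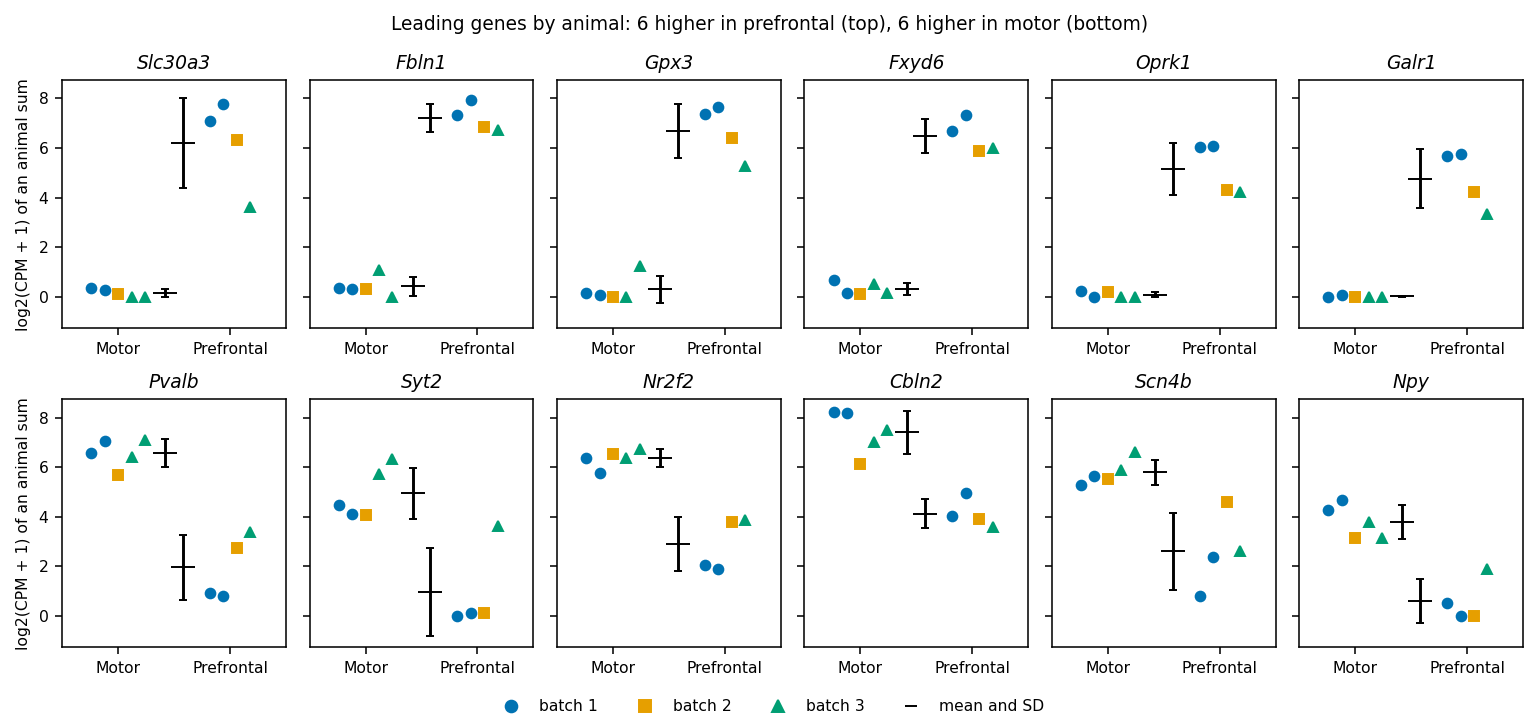
Levels of 12 leading genes in each animal sum, as log2(CPM + 1); points are sums, marked by sequencing batch, and bars the mean and SD of a system (5 motor, 4 prefrontal sums). The 6 genes in the top row lie near 0 in the motor sums, and Prefrontal 4 stands above the other prefrontal sums for Syt2 (11.4 CPM against at most 0.0984).

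Promoters are shown for 2 leading genes of each system, since each was near 0 in at least 1 sum of the other system. Each runs from 250 bases before to 50 bases after a start of the gene in RefSeq, in GRCm38 (p6 in the RefSeq table). A pair of short motifs, which can share no more than an end letter, was searched on both strands and is in capitals. One is AGGTCA, a half-site of nuclear receptors. The other is the core promoter element TATAAA. Slc30a3 is at chr5:31108195-31108494 on the minus strand, Fbln1 at chr15:85205699-85205998 on the plus strand, Pvalb, described below, at chr15:78206351-78206650 on the minus strand, and Syt2 at chr1:134646362-134646661 on the plus strand.
Slc30a3: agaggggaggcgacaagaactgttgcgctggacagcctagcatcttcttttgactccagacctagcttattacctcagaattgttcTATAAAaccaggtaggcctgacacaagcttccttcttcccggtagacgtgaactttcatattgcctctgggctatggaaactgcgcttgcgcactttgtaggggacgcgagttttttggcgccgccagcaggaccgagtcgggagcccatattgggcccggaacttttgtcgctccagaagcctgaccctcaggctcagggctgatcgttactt
Fbln1: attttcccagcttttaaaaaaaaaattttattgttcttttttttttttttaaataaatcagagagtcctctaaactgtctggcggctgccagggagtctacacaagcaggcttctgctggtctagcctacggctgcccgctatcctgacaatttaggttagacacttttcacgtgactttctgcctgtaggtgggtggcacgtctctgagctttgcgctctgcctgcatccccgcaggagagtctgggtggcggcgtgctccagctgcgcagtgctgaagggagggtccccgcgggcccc
Pvalb: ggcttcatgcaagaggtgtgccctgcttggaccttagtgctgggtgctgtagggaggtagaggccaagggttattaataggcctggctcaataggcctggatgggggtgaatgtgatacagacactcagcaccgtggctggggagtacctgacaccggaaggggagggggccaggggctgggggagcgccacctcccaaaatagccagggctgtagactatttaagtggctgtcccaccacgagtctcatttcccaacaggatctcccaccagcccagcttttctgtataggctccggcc
Syt2: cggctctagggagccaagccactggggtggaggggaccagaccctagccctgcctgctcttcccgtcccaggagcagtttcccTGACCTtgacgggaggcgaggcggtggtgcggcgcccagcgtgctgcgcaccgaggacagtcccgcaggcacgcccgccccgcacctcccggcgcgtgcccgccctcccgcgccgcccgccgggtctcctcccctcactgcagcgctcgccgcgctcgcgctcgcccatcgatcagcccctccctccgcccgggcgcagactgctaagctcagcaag

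Of these, Slc30a3 held TATAAA, and Syt2 held AGGTCA on the opposite strand. Among the 11 motor and 11 prefrontal leading genes with a promoter in the table, 2 and 1 held AGGTCA, against 16.3% of all 32851 promoters, and 2 and 1 held TATAAA, against 13.6%. For Nmbr, the prefrontal gene with AGGTCA, the RefSeq start used lay 54356 bases from the start of the gene in GENCODE. For Slco2a1, a motor gene with TATAAA, the distance was 19775 bases, so these windows may not be the usual promoters.

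The leading motor genes included a calcium buffer, a calcium sensor of release and a sodium channel subunit. Pvalb, the calcium buffer parvalbumin, lay at 94.7, 131, 50.7, 84.7 and 135 CPM in motor sums and at 0.886, 0.732, 5.71 and 9.503 CPM in prefrontal sums. The groups did not overlap, and both prefrontal sums of batch 1 were below 1 CPM. The fold was 4.69 ± 0.63 (edgeR adjusted p = 0.000973; 4.13 to 5.38 with 1 animal left out). Syt2, the synaptotagmin of the fastest synapses, lay at 21.2, 16.2, 15.6, 52.04 and 79.5 CPM in motor sums and at 0, 0.0732, 0.0984 and 11.4 CPM in prefrontal sums. Prefrontal 4 held most of the prefrontal transcripts, and the fold was 4.76 ± 0.79 (adjusted p = 0.00333) with all animals and 7.76 without that sum. Scn4b, the sodium channel subunit linked to resurgent current, lay at 38.2, 48.7, 45.1, 58.7 and 96.7 and 0.738, 4.17, 23.5 and 5.09 CPM (fold 3.27 ± 0.60, adjusted p = 0.00573). Prefrontal 3, at 23.5 CPM, was the nearest to the motor sums.

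Other leading motor genes were a transcription factor, secreted proteins and metabolic genes. Nr2f2, the nuclear receptor COUP-TFII, lay at 81.9, 53.9, 92.7, 80.7 and 106 CPM in motor and 3.101, 2.71, 12.7 and 13.7 CPM in prefrontal sums (fold 3.55 ± 0.35, adjusted p = 0.000171). Cbln2, a secreted cerebellin that bridges synapses, lay at 294, 289.5, 69.2, 127 and 179.9 and 15.2, 30.4, 14.2 and 11.03 CPM (fold 3.40 ± 0.30, adjusted p = 9.8e-05). Within motor neurons both sums of batch 1 were the highest. Ppp1r3a, which targets a phosphatase to glycogen, lay at 10.8, 15.3, 9.41, 19.3 and 13.5 CPM in motor sums and at most at 0.197 CPM in prefrontal sums (fold 6.63 ± 0.64, adjusted p = 0.000164). Slco2a1, a prostaglandin transporter, lay at 19.5 to 34.6 and 0.0732 to 5.43 CPM (fold 4.05 ± 0.74), and Ccdc141, a coiled-coil protein, at 29.9 to 71.98 and 0.732 to 16.1 CPM (fold 3.36 ± 0.64). Sec14l4, of a family of lipid-binding proteins, lay at 9.04 to 23.4 and 0 to 4.07 CPM (fold 4.29 ± 0.97, adjusted p = 0.0174). Col24a1, a fibrillar collagen, lay at 6.59 to 16.3 and 0 to 5.26 CPM (fold 3.55 ± 0.80, adjusted p = 0.0167), and was no longer called without Motor 3, Prefrontal 2 or Prefrontal 3.

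Npy, which encodes neuropeptide Y, lay at 18.5, 24.5, 7.72, 12.7 and 7.79 CPM in motor and 0.443, 0, 0 and 2.72 CPM in prefrontal sums. The groups did not overlap, and the fold was 4.89 ± 1.11 (edgeR adjusted p = 0.0172). It was 7.42 without Prefrontal 4, and without Prefrontal 1 the adjusted p was 0.054. In the brain, Npy is known mainly from GABA neurons. Summed GABA neuron markers lay at 11.6 to 24.8 CPM in motor and 8.655 to 22.98 CPM in prefrontal sums. Npy itself is on that list, as is Gad2, with 1 UMI in motor cells against 400 in prefrontal cells. These 2 genes went in opposite directions, so the overlap of the sums does not show an equal content of GABA neurons. Gad1 and Slc32a1 were under 1 CPM in every sum. The part of GABA neurons in the Npy difference was not tested. Npy lay at 26.9 CPM in the authors' motor cluster 1 and at 20.4 in their motor cluster 3, against 3.02 in cluster 2 and 0 in cluster 4. None of its motor UMIs came from the 7 cells described next.

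Transcripts of myelin-forming cells that were higher in motor neurons came mostly from 7 cells. The authors' table marks 7 motor cells and no prefrontal cell in a column headed is_ODC, which neither the labels nor the table explain. Mobp, of myelin, lay at 16.8, 18.7, 3.01, 21.03 and 1.83 CPM in motor sums, and at no more than 0.591 CPM in prefrontal sums. Apod, an apolipoprotein, and Trf, transferrin, lay at 21.5, 46.2, 0.816, 15.8 and 0 and 17.7, 18.2, 0.0628, 30.05 and 0.115 CPM in motor sums and at no more than 0.0732 and 1.32 CPM in prefrontal sums. The 7 marked cells held 88.8% of the motor UMIs of Mobp, 98.4% of Apod, 98.8% of Trf and 95.9% of Mag. Without these cells the 4 genes were too low to be tested. Summed oligodendrocyte markers in motor sums then fell from at most 408 CPM to 12.95 to 49.9 CPM. In prefrontal sums these markers lay at 42.4 to 113.5 CPM. Apod was no longer called without Prefrontal 2, and Trf without Motor 3 or any prefrontal animal. Of the 9 fits that leave out 1 animal, Apod was tested in 5 and Trf in 6. Without the marked cells, 1476 genes were different in place of 1489.

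At the level of single cells, a leading gene was found in a part of the cells of its system. With each cell thinned to 20000 UMIs, a UMI of Fbln1 was found in 57.8, 62.2, 45.3 and 42.5% of the cells of the 4 prefrontal animals and in 0, 0, 0.606, 1.25 and 0% of the cells of the motor animals. For Slc30a3 the shares were 43.8, 48.6, 23.5 and 6.25% and 0, 0, 0.606, 0 and 0%. Its share in Prefrontal 4 was far below those of the other prefrontal animals, as was its level. Nr2f2 was found in 48.6, 35.4, 52.7, 50 and 51.8% of motor cells and in 6.25, 4.05, 11.2 and 13.8% of prefrontal cells, and Pvalb in 31.1, 35.4, 12.1, 20 and 27.7% and 1.56, 2.703, 4.12 and 2.5%. Syt2 was found in 39 of 484 motor cells and 3 of 388 prefrontal cells, and Npy in 43 and 4. Of the 30 leading genes, 26 differed in share (exact permutation test over animals, two-sided, Benjamini-Hochberg over the 30 genes), 11 higher in motor and 15 in prefrontal neurons. Apod, Mobp and Trf were among the other 4. These genes were chosen by their fold in the same animals, so this count is no independent result.

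The prefrontal leading genes were found in more cells of some of the authors' 4 prefrontal clusters than of others. At 20000 UMIs, 470 of 484 motor cells (97.1%) had a UMI of none of the 15 prefrontal leading genes. Among prefrontal cells 132 of 388 (34.0%) had none. The share with none was 4.4% of the 113 cells of prefrontal cluster 3 and 11.3% of the 97 cells of cluster 4, but 55.2% of the 134 cells of cluster 2 and 95.5% of the 44 cells of cluster 1. At least 6 of the 15 were found in 38.9% of the cells of cluster 3, 34.0% of cluster 4 and 5.2% of cluster 2, and in no cell of cluster 1 and no motor cell. These clusters were made from the same counts, so the values are a description. Prefrontal cluster 3 held 52 cells of Prefrontal 1 and 61 of Prefrontal 2 and none of the other animals, and cluster 4 held 45 and 49 cells of Prefrontal 3 and 4 and 3 of the others. The share of prefrontal cells with none of the 15 genes was 14.1% and 14.9% in Prefrontal 1 and 2, from batch 1, and 44.1% and 46.3% in Prefrontal 3 and 4.

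**Figure D2:**
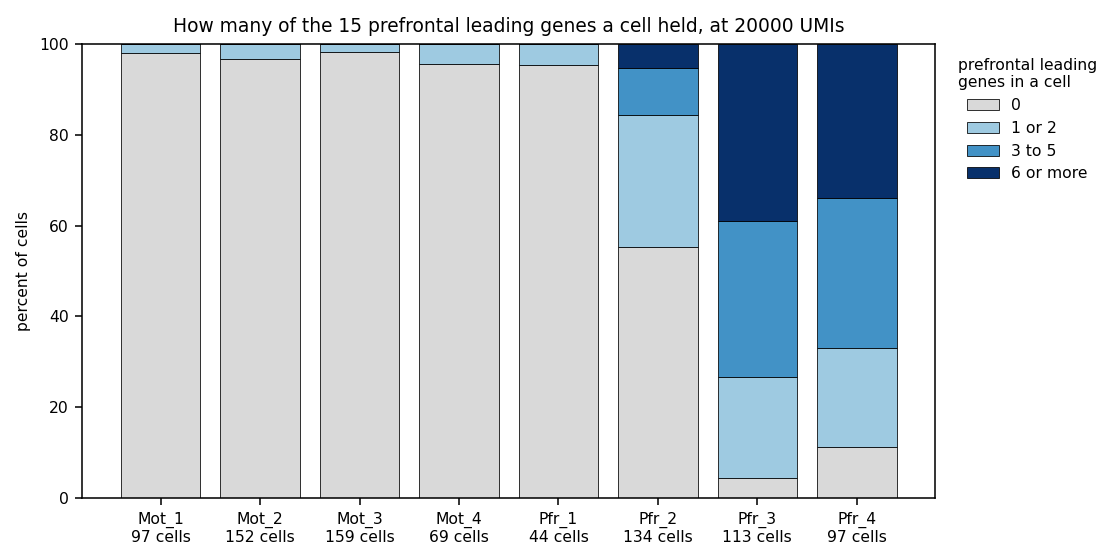
Share of cells (percent) in each of the authors' motor (Mot) and prefrontal (Pfr) clusters by the number of the 15 prefrontal leading genes with a UMI, at 20000 UMIs per cell. Prefrontal cluster 1 resembles the motor clusters here, with 95.5% of cells holding none, and 6 or more were held by 38.9%, 34.0% and 5.2% of the cells of prefrontal clusters 3, 4 and 2.

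Prefrontal cluster 1 stood closer to the motor clusters in several genes described here. Of its 44 cells, 31 came from Prefrontal 3, and 3, 4 and 6 from Prefrontal 1, 2 and 4. Its pooled values thus rest mostly on 1 animal. Fbln1 lay at 0.41 CPM in the pooled cells of cluster 1, against 65.3, 245 and 257 CPM in prefrontal clusters 2, 3 and 4. In the 4 motor clusters it lay at 0.07 to 0.30 CPM. Kcna1 lay at 182 CPM there, against 10.7 to 27.5 CPM in the other prefrontal clusters and 58.2 to 311 CPM in the motor clusters. Calb2 lay at 5.94 CPM there, against 328 to 1978 CPM in the other prefrontal clusters. It differed from most motor cells in Cbln2, at 4.73 CPM against 336 and 278 in motor clusters 1 and 3, though motor cluster 2 was at 4.49. In the authors' clusters over all systems, 99 prefrontal cells and no motor cell were in joint cluster 9, and 190 motor cells and 2 prefrontal cells in joint cluster 4. Joint cluster 1 held 63 motor and 24 prefrontal cells.

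Several potassium channel genes of fast spiking were higher in motor neurons. Kv1 channels limit repetitive firing near threshold, and Kv3 channels repolarise the spike quickly. Of 11 tested genes of the Kv1 and Kv3 families and their beta subunits, 7 were higher in motor and 1 in prefrontal neurons and 3 did not pass, where 9.67% of all genes differed, and the median fold was 1.15 against 0.01 over all genes. Kcna1, the Kv1.1 subunit, lay at 209.8, 187, 153, 163 and 210.2 CPM in motor and 14.8, 29.2, 65.6 and 32.6 CPM in prefrontal sums. The groups were far apart, with the 2 prefrontal sums of batch 1 lowest, and the fold was 2.54 ± 0.32 (edgeR adjusted p = 0.000709). Kcnab3, a beta subunit of Kv1, had a fold of 2.31 ± 0.35, Kcna2 of 1.15 ± 0.18 and Kcnab2 of 1.23 ± 0.19. The Kv3 genes Kcnc1 and Kcnc2 had folds of 1.19 and 1.02. Kcnc4, also of the Kv3 family, went the other way, at 4.76, 1.05, 2.07, 1.78 and 2.18 CPM in motor and 19.1, 21.4, 17.02 and 27.3 CPM in prefrontal sums (fold -3.13 ± 0.45, adjusted p = 0.00155). Kcnip1, an accessory protein of Kv4 channels, lay at 0.229 to 4.58 CPM in motor and 44.1 to 157 CPM in prefrontal sums (fold -6.43 ± 0.74, adjusted p = 0.000466). It was the only 1 of 9 tested Kv4 and accessory genes that was higher in prefrontal neurons, while 4 were higher in motor neurons.

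Sodium channel genes differed in opposite directions. Higher in motor neurons were Scn1a (Nav1.1; 1.08 ± 0.17), Scn8a (Nav1.6; 1.29 ± 0.18) and the beta subunits Scn4b and Scn2b (0.43 ± 0.11). Higher in prefrontal neurons were Scn2a (Nav1.2; -0.49 ± 0.11), Scn3a (Nav1.3; -0.87 ± 0.21), Scn9a (Nav1.7; -1.35 ± 0.31) and the beta subunit Scn3b. Scn8a lay at 689, 575, 502, 509.6 and 568 CPM in motor and 167, 201, 304 and 289 CPM in prefrontal sums (edgeR adjusted p = 0.00145). Scn3b lay at 130.3, 209, 210.2, 218 and 153 CPM in motor and 1004, 572, 939 and 762 CPM in prefrontal sums, with no overlap (fold -2.12 ± 0.20, adjusted p = 0.000128). The call was lost for Scn2b without any 1 animal except Motor 4 and Prefrontal 1, for Scn3a without Motor 1, 2 or 5 or Prefrontal 1, 2 or 4, and for Scn9a without Motor 1, 2 or 3 or Prefrontal 1 or 3. For Scn2a it was lost without Prefrontal 4.

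Pacemaker and T-type channel genes also split. HCN channels carry the current that depolarises a neuron after hyperpolarisation. Hcn4 and Hcn2 were higher in motor neurons. Hcn4 lay at 82.7, 84.8, 112, 113 and 102 and 59.5, 37.1, 66.6 and 61.1 CPM (fold 0.82 ± 0.16, edgeR adjusted p = 0.00797). Hcn2 lay at 43.1, 46.8, 9.73, 13.9 and 8.02 and 13.9, 11.5, 5.26 and 6.28 CPM (fold 1.34 ± 0.31, adjusted p = 0.0184), where the groups overlapped and the call was lost without Motor 1, Motor 2 or Prefrontal 2. Among T-type calcium channels, which carry burst firing, Cacna1i was higher in prefrontal neurons at 6.44 to 31.01 against 2.82 to 5.501 CPM (fold -2.30 ± 0.45, adjusted p = 0.00852; 0.0655 without Prefrontal 4). Cacna1g, the main T-type gene of relay neurons, lay at 216 to 388 and 185 to 260.4 CPM and did not pass (fold 0.37 ± 0.11, adjusted p = 0.0596).

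**Figure D3:**
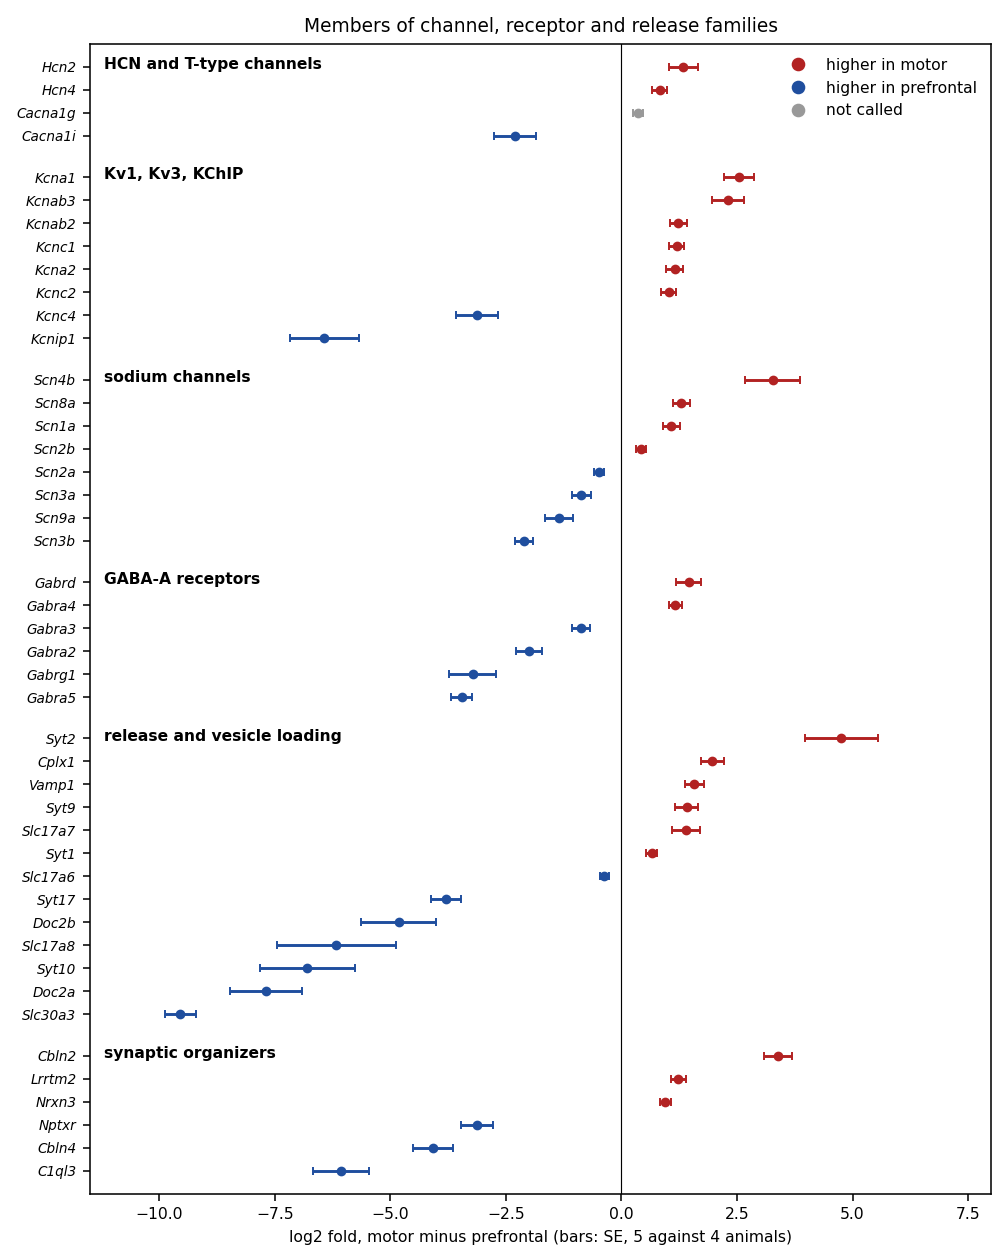
Log2 folds (motor minus prefrontal, 5 against 4 animal sums) of members of channel, receptor, release and synaptic organizer families; bars are SE, and colour shows which system the gene was higher in at an adjusted p under 0.05. Within most families members lie on both sides of 0, for example Gabrd at 1.45 and Gabra5 at -3.46.

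Related genes of transmitter release went in opposite directions. Of 26 tested genes of vesicle release, 7 were higher in motor and 7 in prefrontal neurons, where 9.67% of all genes differed. The median fold was 0.09. On the motor side, with Syt2, was Cplx1, the complexin that clamps and times fusion, at 1221, 1256, 1673, 1407 and 1785 CPM in motor and 166, 242, 754 and 546 CPM in prefrontal sums (fold 1.97 ± 0.24, edgeR adjusted p = 0.000577). Vamp1, a vesicle SNARE of fast synapses, had a fold of 1.58 ± 0.20, Syt1, the common fast calcium sensor, of 0.65 ± 0.12, and Syt9, a further synaptotagmin, of 1.41 ± 0.24. On the prefrontal side, with Doc2a, was its relative Doc2b, at 29.1, 17.6, 16.1 and 5.6 CPM in prefrontal and 1.203, 0, 1.004, 0.137 and 0.229 CPM in motor sums (fold -4.82 ± 0.81, adjusted p = 0.00359). Syt17, a synaptotagmin that does not bind calcium, lay at 116 to 215 CPM in prefrontal and 5.58 to 14.8 CPM in motor sums (fold -3.80 ± 0.33, adjusted p = 7.54e-05). Syt10 lay at 16.8, 3.66, 9.005 and 0.848 CPM in prefrontal and at most at 0.126 CPM in motor sums (fold -6.80 ± 1.03).

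Among the tested transporters that load vesicles were Slc30a3, described above, and those of glutamate. With them the list held the vesicle glycoproteins Sv2a, Sv2b and Sv2c, which did not pass. Of its 7 tested genes 1 was higher in motor and 3 in prefrontal neurons, against 9.67% different over all genes. The main glutamate transporter of thalamic neurons, Slc17a6 (VGLUT2), lay at 641, 695, 645, 713 and 685 CPM in motor and 1008, 993, 767 and 829 CPM in prefrontal sums (fold -0.37 ± 0.10, edgeR adjusted p = 0.0392). The groups did not overlap, but the call was lost in each of the 9 fits that leave out 1 animal. Slc17a7 (VGLUT1) had 18.9 to 46.4 CPM in motor and 9.66 to 25.8 CPM in prefrontal sums (fold 1.40 ± 0.29, adjusted p = 0.0122), where the groups overlapped. Slc17a8 (VGLUT3) lay at 18.2, 3.51, 31.9 and 16.97 CPM in prefrontal and 0, 0.0499, 0.126, 0.137 and 4.35 CPM in motor sums. Motor 5, at 4.35 CPM, was above Prefrontal 2, at 3.51. The fold was -6.17 ± 1.29 (adjusted p = 0.0117; 0.0566 without Prefrontal 3).

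Of 27 tested receptors for modulators, 12 were higher in prefrontal and 4 in motor neurons and 11 did not pass, where 9.67% of all genes differed. The median fold was -1.02 against 0.01 over all genes. Cnr1, the cannabinoid receptor CB1, lay at 63.9, 45.4, 16.4 and 25.6 CPM in prefrontal and 0.344, 0, 0.126, 0 and 2.41 CPM in motor sums (fold -6.60 ± 0.97, edgeR adjusted p = 0.00168). Htr2c, a serotonin receptor, lay at 121, 111, 124 and 109.6 CPM in prefrontal and 2.64, 3.34, 37.5, 28.4 and 17.8 CPM in motor sums (fold -3.43 ± 0.58, adjusted p = 0.00364). The prefrontal sums were close together, and within motor neurons the batch 1 sums were the lowest. Tacr3, the neurokinin B receptor, had 323 UMIs in prefrontal and none in motor cells, at least 160-fold higher against a floor of 3 counts over the motor group. Hcrtr2, an orexin receptor, had 233 and 2 (ratio 174, interval 47.5 to 1440). Ntsr1, a neurotensin receptor, had a fold of -5.95 ± 1.00, and Oprm1, the mu opioid receptor, of -1.86 ± 0.36. On the motor side, Chrm1, a muscarinic receptor, had 214 UMIs in motor cells and 1 in prefrontal cells (ratio 144, interval 25.5 to 5700). Its edgeR adjusted p was 0.0089 and 0.0679 without Prefrontal 3, and it was tested in 5 of the 9 fits that leave out 1 animal. Adrb1, a beta adrenergic receptor, lay at 46.1 to 93.98 and 25.8 to 32.03 CPM (fold 1.15 ± 0.23).

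Of 12 tested neuropeptide genes, 3 were higher in motor and 4 in prefrontal neurons, where 9.67% of all genes differed. Gal, which encodes galanin, the ligand of Galr1, lay at 124, 91.4, 26.4 and 288 CPM in prefrontal and 1.72, 5.98, 9.35, 10.4 and 32.1 CPM in motor sums (fold -3.70 ± 0.57, edgeR adjusted p = 0.0021). Motor 5, at 32.1 CPM, was above Prefrontal 3, at 26.4, so the groups overlapped. By the authors' clusters, Gal lay at 116 and 246 CPM in prefrontal clusters 3 and 4, 11.2 in cluster 2 and 1.62 in cluster 1, and the highest motor cluster was at 24.2. Nppc, the precursor of C-type natriuretic peptide, lay at 39.6, 74.4, 49.8 and 49.7 CPM in prefrontal and 4.47, 6.13, 4.52, 3.14 and 3.32 CPM in motor sums (fold -3.55 ± 0.27, adjusted p = 3.58e-05).

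Of 14 tested AMPA receptor and auxiliary genes, 4 were higher in motor and 1 in prefrontal neurons, where 9.67% of all genes differed. Cnih3, an auxiliary subunit that slows AMPA receptor closing, lay at 55.01, 39.2, 154, 93.8 and 74.1 CPM in motor and 8.71, 13.3, 11.3 and 5.77 CPM in prefrontal sums (fold 2.99 ± 0.36, edgeR adjusted p = 0.000533). Cacng3, an auxiliary subunit of another family, went the other way at 4.34 to 14.6 and 59.9 to 153 CPM (fold -3.40 ± 0.40, adjusted p = 0.000519). Gria3, an AMPA subunit, had a fold of 1.30 ± 0.24. Of 19 NMDA, kainate and metabotropic genes, 4 were higher in motor and 3 in prefrontal neurons, against the same 9.67% over all genes. The NMDA subunits Grin2b (1.125 ± 0.14) and Grin2c (1.42 ± 0.23) were among those higher in motor neurons. Grm8, a presynaptic metabotropic receptor, lay at 18.9 to 38.2 CPM in prefrontal and 0 to 3.51 CPM in motor sums (fold -5.83 ± 0.94), and Grm2 had a fold of -1.55 ± 0.22.

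GABA-A receptor subunits went in both directions. Subunits of alpha 4 and delta form extrasynaptic receptors of relay nuclei, and alpha 2, alpha 3 and alpha 5 are typical of other receptor types. Gabrd, the delta subunit, lay at 452, 443, 397, 389 and 401 CPM in motor and 65.7, 146, 227 and 207 CPM in prefrontal sums (fold 1.45 ± 0.27, edgeR adjusted p = 0.00622). Gabra4 had a fold of 1.17 ± 0.13 (adjusted p = 0.000445). Gabra5 was higher in prefrontal neurons at 68.96, 77.9, 46.5 and 41.1 CPM, against 4.81, 8.18, 3.77, 3.55 and 4.24 CPM in motor sums (fold -3.46 ± 0.24, adjusted p = 1.47e-05). Gabra2 lay at 90.5 to 304 and 24.98 to 45.8 CPM (fold -1.999 ± 0.29), and Gabrg1, a gamma subunit, at 13.4 to 36.3 and 0.956 to 4.699 CPM (fold -3.22 ± 0.52). Gabra3 had a fold of -0.88 ± 0.19 and was no longer called without Prefrontal 3 or 4. In all, 6 of 18 GABA and glycine receptor genes were higher in motor and 4 in prefrontal neurons, where 9.67% of all genes differed.

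Of 16 tested proteins that organise synapses, 5 were higher in motor and 3 in prefrontal neurons, where 9.67% of all genes differed. Cbln2 was the largest on the motor side, with Lrrtm2 (fold 1.23 ± 0.15), a postsynaptic partner of neurexins, and the neurexin Nrxn3 (0.95 ± 0.12). On the prefrontal side Cbln4, a cerebellin like Cbln2, lay at 52.1, 36.4, 59.7 and 26.5 CPM in prefrontal and 0.974, 1.45, 7.53, 1.91 and 2.86 CPM in motor sums (fold -4.08 ± 0.43, edgeR adjusted p = 0.000245). C1ql3, of the same protein superfamily, lay at 193, 83.9, 43.9 and 101 CPM in prefrontal and 1.38, 0.648, 0.628, 0.956 and 6.76 CPM in motor sums (fold -6.07 ± 0.60, adjusted p = 0.000181). Nptxr, the neuronal pentraxin receptor, lay at 824, 641, 341 and 156 and 46.9, 39.3, 49.95, 44.5 and 42.97 CPM (fold -3.12 ± 0.35, adjusted p = 0.000353). The motor sums of Nptxr were close together, and the prefrontal sums of batch 1 were the highest.

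Among 21 cadherins, 4 were higher in motor and 2 in prefrontal neurons, where 9.67% of all genes differed. The protocadherins Pcdh9 and Pcdh7 had folds of 1.81 ± 0.15 and 1.74 ± 0.15 (edgeR adjusted p = 6.08e-05 and 7.54e-05), the cadherin Cdh12 of 1.54 ± 0.30, and Cdh13, a cadherin with a lipid anchor, of -1.30 ± 0.17. Of 40 axon guidance genes, 6 were higher in motor and 3 in prefrontal neurons, against the same 9.67% over all genes. Sema5a and Sema6a, both transmembrane semaphorins, lay at 147, 145, 102, 107 and 141 and 83.4, 109, 118, 62.8 and 89.4 CPM in motor sums, and at 11.1, 23.6, 30.9 and 52.9 and 22.9, 16.2, 42.4 and 22.7 CPM in prefrontal sums (folds 2.18 ± 0.34 and 1.97 ± 0.22). The groups did not overlap for either. Nrp1, a semaphorin receptor, had a fold of 2.81 ± 0.48. Receptors of ephrins went in opposite directions, Epha4 at 1.14 ± 0.15 and Epha5 at -1.72 ± 0.18 (adjusted p = 0.00095 and 0.000245). Slit1, a repellent of growing axons, lay at 3.903 to 25.4 CPM in prefrontal and 0.273 to 3.84 CPM in motor sums (fold -2.996 ± 0.51). Of 19 teneurins, contactins and their relatives, 4 and 2 were higher in motor and prefrontal neurons, again against 9.67% over all genes.

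Transcription factors of the thalamus held 18 different genes among 38 tested, where 9.67% of all genes differed. Of these 10 were higher in motor and 8 in prefrontal neurons, and the median fold of the 38 was 0.12. With Nr2f2 in motor neurons were its relative Nr2f1 (0.84 ± 0.13), the orphan receptors Rora (0.68 ± 0.12) and Rorb (0.81 ± 0.11), and Lef1, an effector of Wnt signals (1.14 ± 0.14). Sox5 lay at 49.5, 69.4, 39.9, 59.8 and 51 CPM in motor and 4.58, 4.54, 11.7 and 15.1 CPM in prefrontal sums (fold 2.67 ± 0.37, edgeR adjusted p = 0.00115), and Tshz2, a zinc finger protein, had a fold of 1.498 ± 0.18. In prefrontal neurons Zic5, a zinc finger factor, lay at 83.3, 90.3, 55.3 and 52.9 CPM, against 3.32, 1.35, 7.84, 7.24 and 2.41 CPM in motor sums (fold -4.08 ± 0.49, adjusted p = 0.000523). Gbx2, a homeobox gene needed for thalamic development, lay at 253, 256, 235 and 230.4 CPM in prefrontal and 51.5, 63.8, 104, 102 and 102 CPM in motor sums (fold -1.59 ± 0.19, adjusted p = 0.000541). The LIM homeobox genes Lhx2 and Lhx9 had folds of -1.21 ± 0.23 and -1.31 ± 0.16, and the forkhead gene Foxp1 of -1.28 ± 0.18. For Zic5, Gbx2 and Sox5 no motor sum overlapped a prefrontal sum.

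Matrix, signalling and calcium-binding genes were split too. Of 22 matrix genes, 5 were higher in motor neurons, where 4.55% of all genes were. Spon1, the secreted adhesion protein F-spondin, lay at 217, 241, 249, 237 and 228 CPM in motor and 64.8, 22.4, 67.7 and 60.4 CPM in prefrontal sums (fold 2.18 ± 0.26, edgeR adjusted p = 0.000575). Hapln4 (1.25 ± 0.19) and Bcan (2.26 ± 0.50), both of perineuronal nets, were higher in motor neurons too, Bcan with an adjusted p of 0.0565 without Prefrontal 1. On the prefrontal side stood Fbln1 and Col12a1, a collagen (-2.54 ± 0.26). Of 37 signalling genes, 9 were higher in motor and 7 in prefrontal neurons, where 9.67% of all genes differed. Rgs4, which speeds the end of G protein signals, lay at 1135, 1193, 816, 776 and 723 CPM in motor and 172, 161, 289 and 206 CPM in prefrontal sums (fold 2.24 ± 0.20, adjusted p = 0.000118). Its relatives Rgs10 and Rgs9 were higher in prefrontal neurons (-3.26 ± 0.33 and -4.59 ± 0.92). Plcb4, the phospholipase C of thalamic relay neurons, had a fold of 1.18 ± 0.17 and its relative Plcb1 of -1.93 ± 0.23. Prkcd, the protein kinase C of relay neurons, had a fold of 1.81 ± 0.23 and Adcy1, an adenylyl cyclase, of 1.49 ± 0.20. The phosphodiesterases Pde4b (-1.83 ± 0.18) and Pde1a (-4.63 ± 0.92) were higher in prefrontal neurons, Pde1a with an adjusted p of 0.142 without Prefrontal 4.

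Of 19 calcium-binding proteins, 5 were higher in motor and 6 in prefrontal neurons, where 9.67% of all genes differed. Calb2, calretinin, lay at 1458, 1794, 690.1 and 209 CPM in prefrontal and 11.2, 7.03, 51.6, 63.1 and 49.05 CPM in motor sums (fold -5.09 ± 0.95, edgeR adjusted p = 0.00632). The fold in batch 1 was further from 0 than in the other batches, with a difference of -4.67 on the log2 scale (interaction of system and batch, edgeR adjusted p = 0.00153). That interaction, added after the data were seen and fitted on 3 residual degrees of freedom, was called for 2 of 15400 genes, Calb2 and Sptssb, and had an unadjusted p under 0.05 for 994. Necab1 lay at 496, 420.4, 476 and 449.7 CPM in prefrontal and 186, 179.9, 83.96, 253 and 141 CPM in motor sums (fold -1.52 ± 0.23), and Hpcal1, a relative of hippocalcin, had 324 UMIs in prefrontal and 3 in motor cells (ratio 161, interval 54.6 to 784). Pcp4, which binds calmodulin, had a fold of 1.59 ± 0.22, and its groups overlapped. Calb1, calbindin, did not pass, at 474 to 904 and 466 to 934 CPM (fold 0.02 ± 0.23, adjusted p = 0.976).

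The marker lists of relay and of midline nuclei lay on opposite sides. Against 4.55% of all genes, 8 of 10 relay (core) markers were higher in motor and none in prefrontal neurons (median fold 1.65). They were Pvalb, Scn4b, Kcna1, Rorb, Lef1, the neurofilaments Nefh (1.88 ± 0.20) and Nefm (1.63 ± 0.27) and the lipase relative Abhd12b (1.68 ± 0.22). Nefh lay at 690.1, 869, 348, 464 and 585 CPM in motor and 191, 155, 169.5 and 136 CPM in prefrontal sums (edgeR adjusted p = 0.000257). Tnnt1, a troponin used as a relay marker, did not pass at 36.1 to 282 and 11.96 to 221 CPM (adjusted p = 0.457). Against 5.12% of all genes, 6 of 9 tested midline and intralaminar markers were higher in prefrontal and none in motor neurons (median -5.06). They were Calb2, Gal, Oprk1, Hcrtr2, Necab1 and Lypd6b, a protein of the Ly6 family (-5.06 ± 1.26), whose call was lost without Motor 1 or 2 or Prefrontal 1, 2 or 4. Members are shared with the lists above, and the lists were drawn up with earlier results of these data known. Of the 8 habenula markers 4 were tested, and 2 of these did not pass. Gpr151, an orphan receptor, was higher in prefrontal neurons at 21.6 to 64.7 against 0 to 2.87 CPM (fold -5.27 ± 0.87), as was Calb2. Summed habenula markers, given above, were higher in every prefrontal sum than in any motor sum. Most of that prefrontal level was Calb2, which is also on the midline list. The part of habenula cells in these differences was not tested. Gad2, a GABA-synthesising enzyme, had 400 UMIs in prefrontal cells and 1 in motor cells (ratio 596, interval 106 to 23600), with Gad1 and Slc32a1 under 1 CPM.

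Genes of cell state and metabolism were compared for the same sums. Of 15 immediate early genes, which respond to neural activity and to tissue handling, 4 were higher in prefrontal neurons and none in motor neurons (median fold -0.82), where 5.12% of all genes were higher in prefrontal neurons. Fos lay at 156, 175, 64.2 and 63.3 CPM in prefrontal and 32.03, 46.5, 31.3, 47.3 and 35.9 CPM in motor sums (fold -1.38 ± 0.27, edgeR adjusted p = 0.00779), and the batch 1 prefrontal sums were the highest. Ier5 had a fold of -1.86 ± 0.29. Of 85 ribosomal protein genes, 20 were higher in prefrontal and none in motor neurons (median -0.47), where 5.12% of all genes were higher in prefrontal neurons, for example Rpl3 (-0.85 ± 0.10). Of 79 nuclear and 8 mitochondrial genes of the respiratory chain, none passed. Ldha and Ldhb, the 2 subunits of lactate dehydrogenase, went in opposite directions. Ldha lay at 455, 543, 405 and 417 CPM in prefrontal and 159.8, 126.0, 118, 97.7 and 91.7 CPM in motor sums (fold -1.87 ± 0.12, adjusted p = 9.96e-06), without overlap. Ldhb had a fold of 0.62 ± 0.13, called with all animals (adjusted p = 0.0138) but not without Prefrontal 4. Aldoc, an aldolase, had a fold of 0.99 ± 0.16. In all 4 of 16 glycolysis genes differed, 2 in each direction, against 9.67% of all genes.

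The makeup of the systems by 3 anchor genes differed. A cell's class was the anchor (Tnnt1, Necab1 or Calb2) with most CPM in it. The Tnnt1 class held 32.4, 21.95, 65.5, 35 and 37.3% of the motor cells of the 5 animals and 3.125, 8.11, 20 and 7.5% of the prefrontal cells (exact permutation test, two-sided p = 0.0159). The Calb2 class held 10.8, 12.2, 9.09, 8.75 and 9.64% of motor and 71.9, 71.6, 36.5 and 17.5% of prefrontal cells (exact p = 0.0159). Neither overlapped, and prefrontal cells of batch 1 were mostly of the Calb2 class. The Necab1 class held 52.7, 57.3, 17.6, 50 and 40.96% of motor and 21.9, 18.9, 42.4 and 73.8% of prefrontal cells (exact p = 0.746). Motor 3 and Prefrontal 4 were the lowest and highest there.

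Within a class, fewer genes passed and most folds kept their sign. A class asks only which anchor was highest in a cell, so anchor levels could still differ between the systems. The anchor genes were left out of these calls. In Necab1 cells 108 of 12222 genes differed (0.884%), 51 higher in motor (0.417%) and 57 in prefrontal neurons (0.466%). Of these 105 had also been different over all cells. Of 1319 genes different over all cells and tested here, 1282 (97.2%) had the same sign, which is partly built in, because the same animals gave both. The median size fell from 1.04 to 0.70 on the log2 scale. Fbln1 kept a fold of -7.52 ± 0.76 (edgeR adjusted p = 0.00224) and Slc30a3 of -6.44 ± 1.158 (adjusted p = 0.0254). Pvalb had 6.21 ± 0.86, Cbln2 5.77 ± 0.42, Kcna1 2.83 ± 0.39 and Gal -4.15 ± 0.77 (adjusted p = 0.00785, 0.000208, 0.00785 and 0.029). Syt2 (3.49 ± 0.97, adjusted p = 0.155) and Npy (2.56 ± 1.48, adjusted p = 0.623) did not pass. The count was 35, 31, 70 and 69 without Motor 1, 2, 3 and 5, 65 and 39 without Prefrontal 3 and 4, and 49 with Necab1 at least 2-fold above the other anchors.

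In Calb2 cells 432 of 11099 genes differed (3.89%), 197 higher in motor (1.77%) and 235 in prefrontal neurons (2.12%), though motor animals gave only 7 to 15 such cells each. Of these, 388 had also been different over all cells. Of 1323 genes different over all cells and tested here, 1309 (98.9%) had the same sign, which is again partly built in. The median size was 1.24 against 1.04 over all cells. Cells of this class were not matched between the systems for their level of Calb2. In pooled Calb2 cells Slc30a3 lay at 226 CPM in prefrontal and 0.11 CPM in motor neurons, Fbln1 at 256 and 0.11, and Fxyd6 at 174 and 0. Kcna1 had a fold of 3.59 ± 0.48, Cplx1 of 3.10 ± 0.36, Prkcd of 3.56 ± 0.36 and Nptxr of -4.00 ± 0.34 (edgeR adjusted p = 0.000966, 0.000333, 0.000116 and 2.63e-05). In all, 74 genes were different in both classes, each in the same direction. Without Prefrontal 1, Prefrontal 2 or Prefrontal 4 the Calb2 count was 231, 216 or 257.

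**Figure D4:**
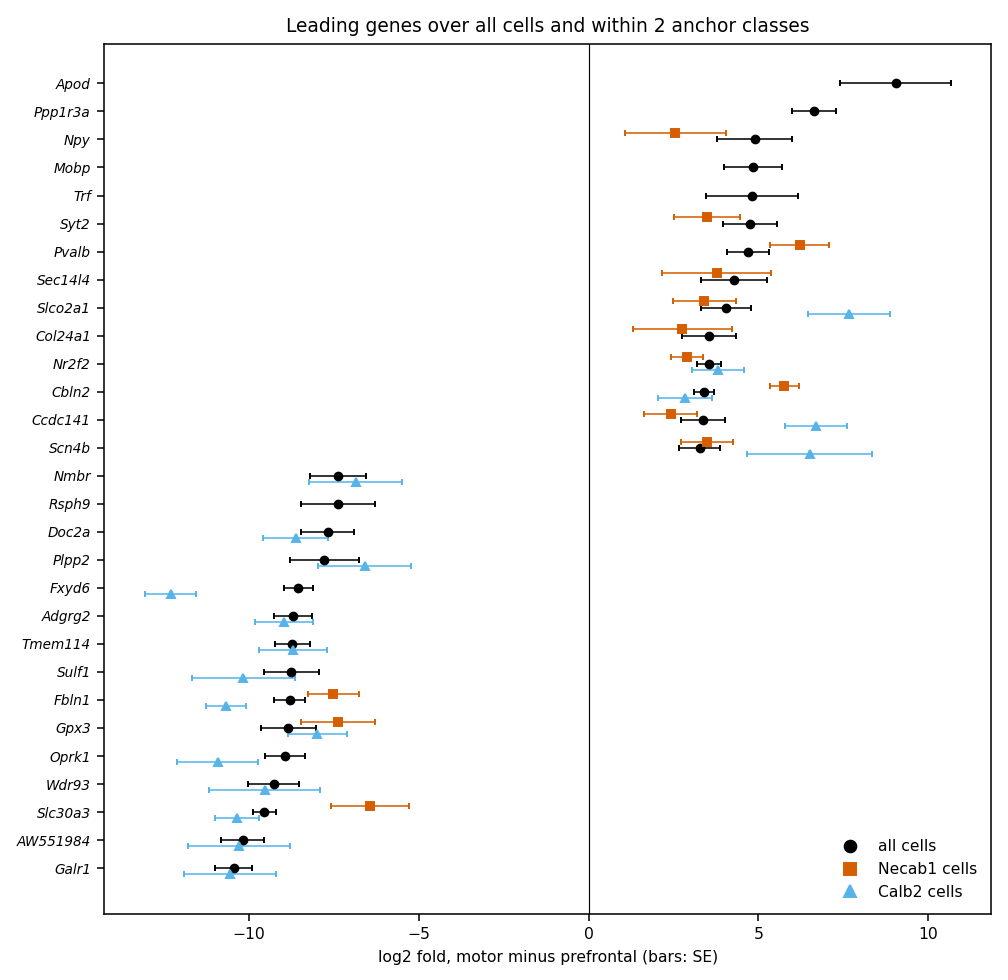
Log2 folds (motor minus prefrontal) of leading genes over all cells and within Necab1 and Calb2 cells, with SE; a missing point means too few counts for a test there. Fbln1 lies far to the left in each set of cells, at -8.81 over all cells; points of genes with almost no UMIs in 1 system, such as Galr1, depend on the prior count of the fit.

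In Tnnt1 cells, a fit added after the data were seen, 8 of 12605 genes differed (0.0635%) and 1068 had an unadjusted p under 0.05. Cbln2 (4.78 ± 0.67), Syt2 (6.88 ± 0.92), Spon1 (3.24 ± 0.32), Pcdh9 (1.95 ± 0.22), Rorb (1.42 ± 0.21) and Rgs4 (1.10 ± 0.16) were higher in motor neurons, with edgeR adjusted p from 0.00447 to 0.0356 for Spon1 and Syt2 and of 0.0437 for Cbln2. Cdh4, a cadherin, and Col25a1, a transmembrane collagen, were higher in prefrontal neurons (-2.21 ± 0.32 and -3.15 ± 0.32) though neither had been different over all cells. Of the 1248 genes different over all cells and tested here, 992 (79.5%) had the same sign, which is partly built in here too. None of the 15 prefrontal leading genes was among the 8. Genes with few UMIs in the 48 prefrontal cells of this class had little or no chance to pass. Their absence therefore does not show equal levels. In pooled Tnnt1 cells Fbln1 lay at 1.497 CPM in prefrontal and 0.18 CPM in motor neurons, and Slc30a3 at 0.12 and 0.07. Of the 44 cells of prefrontal cluster 1, 38 were of the Tnnt1 class. Only 48 prefrontal cells in all were of this class, 34 of them from Prefrontal 3, and Prefrontal 1, with 2, gave too few for a sum.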

How the data were processed

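The authors deposited unnormalized UMI counts for each gene in each cell, and a cell table giving plate, animal, system, sort date and cluster. Per the submitters' processing notes, the build was mm10 and the tools were STAR 2.5.3, cutadapt 1.16 and Picard 1.12. The labels name no annotation or counting rule, so overlapping or near-identical genes may share UMIs. Summed gene counts equalled the deposited total in 1972 of 1972 cells. Cell names were unique, and 238 of 303 well barcodes occurred on more than 1 plate. No cell was filtered and no doublet caller was run, since cells were picked by hand; 25 motor and 15 prefrontal cells with 3 or more detected glial or vascular markers were left out in an alternative.

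Counts were summed per animal (5892815 to 20322775 UMIs). The test was the quasi-likelihood test of edgeR 4.0.16 under R 4.3.3 (normalization by TMM, with factors of 0.964 to 1.03, genes kept by filterByExpr, trended dispersion, glmQLFit and glmQLFTest, sequencing batch as covariate, 5 residual degrees of freedom, Benjamini-Hochberg at 0.05). A class sum needed at least 5 cells. CPM are UMI counts divided by the total of a sum and scaled to the same total. Shares and cell measures were compared with SciPy 1.17.1 by exact permutation over animals. The scripts were checked on simulated data. DESeq2 1.42.0, limma 3.58.1, RLE factors, no filter, 1 dispersion, no batch term, sums per sort date, all 5 systems in the fit, each batch left out or alone, and each animal left out were the alternatives.

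Leading genes are the 15 with the largest fold in each direction among those at an adjusted p under 0.05, a mean of at least 10 CPM in the higher system and the same sign in 3 batches, without unnamed gene models; members of the gene lists may be named too. Some genes enter the counts but are not reported by name here. The members and lists were chosen with earlier results of these data known. Nothing in the labels says that the animals of a system were independent in litter, and intervals and floors cover counting error only. Gene positions are GRCm38 with RefSeq promoters.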

Additional observations from a re-analysis of the deposited data

Results flagged for a closer look

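Among 74 groups of values, 12 (16.2%) had 1 sample far from the others by Dixon's criterion, which chance meets in about 1 in 20 groups. In 5 of these the group was otherwise at 0, so that 1 or a few UMIs set the value. They were AW551984 and Wdr93 in Motor 1 (0.0573 CPM each), Galr1 in Motor 2 (0.0499 CPM), Plpp2 in Motor 3 (0.251 CPM) and Apod in Prefrontal 2 (0.0732 CPM). Fbln1 stood at 1.09 CPM in Motor 4 and at no more than 0.287 in the other motor sums, and Gpx3 at 1.38 CPM in Motor 5 against at most 0.115.

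Prefrontal 4 was the sample apart for 4 leading motor genes. It held 11.4 CPM of Syt2 (next highest prefrontal sum 0.0984), 5.26 CPM of Col24a1 (0.541), 4.07 CPM of Sec14l4 (0.591) and 2.72 CPM of Npy (0.443). Its median spike-in share was 8.59% of UMIs against at most 5.47% in the other prefrontal animals.

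The motor minus prefrontal difference was not the same in every batch for 2 genes. It was lower in batch 1 than in batches 2 and 3 by 4.67 on the log2 scale for Calb2 (-4.67, edgeR adjusted p = 0.00153) and higher by 4.20 for Sptssb (adjusted p = 0.0385).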

How the results depend on the processing

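The count of genes called over all cells (1489) was 2417 with DESeq2, 849 with cells summed per sort date, 481 and 829 without batches 1 and 3, 618 and 329 within batches 1 and 3 alone, and 955 to 1337 with 1 animal left out. The other 9 alternatives kept it within 1.5 times. In Necab1 cells (108) it was 480 with DESeq2, 49 with a 2-fold margin and 31 to 109 with 1 animal left out; in Calb2 cells (432) it was 904 with DESeq2 and 216 to 402 with 1 animal left out. The cause of these shifts was not tested, but fewer sums enter each fit that leaves some out. Of the called genes with a value, every one kept its direction in each alternative except within batch 3 alone, where 1459 of 1461 did. Of 143 named genes that were called, none reversed. Every alternative used the same motor and prefrontal animals or some of them, so kept directions are partly built in. With 1 animal left out, 123 of the 143 stayed called in every fit that tested them. Hpcal1 and Syt10, among these, were tested in only 5 of the 9 such fits. Calb1, which was not called, reversed (0.02) with sums per sort date (-0.12), without batch 1 (-0.56), within batch 3 alone (-0.81) and with 1 animal left out (-0.19 to 0.42). The difference in UMIs per cell (19900) ran from -852.2 to 40940 with 1 animal left out, in genes per cell (289.9) from 166.9 to 472.3 (exact p = 0.0357 without Prefrontal 3), and in Necab1 class share (4.49 points) from -2.28 to 16. The mitochondrial difference was 0.554 points with means over cells (exact p = 0.0476), and the spike-in difference (-0.01 points) 0.594 with means and -0.405 to 0.820 with 1 animal left out. At 20000 UMIs, a gene with few UMIs in a cell is often missed, which limits the shares of cells.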
